A study of Equus caballus with 37 samples.

Results

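Gene expression in blood was compared between untrained Arabian horses (T0) and Arabian horses after the intense gallop phase of race training (T2), a pair made up of 17 of the 37 libraries of the series. The members were chosen by the period in the sample title, which gave 6 libraries of T0 and 11 of T2. T0 horses were sampled in October and T2 horses in May, and all blood was taken from the jugular vein after feeding and before the training of that day, so none of it was drawn straight after exertion. By the labels, T0 held 2 mares and 4 stallions, and T2 held 4 mares and 7 stallions. They give an age of 2.5 years for T0, except for T0 replicate 2 with 3 years, and of 3 years for T2. Training, month and age therefore changed together between both groups and cannot be told apart. How far the horses themselves differed between the groups is not known. By the study's account T0 was sequenced in a pair of the pools and T2 in every pool, so that some T2 libraries shared no pool with T0, and the part of the pools in the results was not tested. The study states that not every horse could be sampled both untrained and trained, since some untrained ones never entered the training centre. The labels name no horse, so it is not known from them which T2 horses, if any, also belong to T0. The main comparison took no pairing into account. Its p-values set the difference between the periods against the spread between these libraries, which were taken as independent. The other periods, used only for levels beside the comparison, were the slow canter phase in March (T1, 12 libraries) and the end of the racing season in October (T3, 8 libraries).

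Whole blood RNA comes mainly from leukocytes and platelets, and the make-up of these cells shifts with training, season, age and infection. Chromatin regulators and transcription factors set which genes a leukocyte transcribes, kinases such as those of the mTOR complexes carry growth and stress signals, and granzymes and major histocompatibility complex (MHC) molecules serve killing by cytotoxic lymphocytes and the display of peptides to T cells. In bulk blood, fewer cells of a type and less RNA per cell cannot be told apart. The markers of blood cell types could not be checked, because 7 of the 183 symbols of the marker and pathway lists could be paired with the gene identifiers of the counts. A set of 73 identifiers that the study prints with a name, a protein family or a protein class was therefore described. The study picked them as differentially expressed in other pairs of periods, or used them in qPCR, on libraries that include these 17, so their counts are not independent evidence of direction.

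T0 libraries had totals of 10416083 to 11898485 counts, and the totals of T2 libraries ran from 6871395 to 12219646. The study gives most T2 libraries a lower share of uniquely mapped reads than any T0 library, and its part in the results was not tested. The TMM factor, which scales a library so that most genes keep their level, averaged 1.08 ± 0.0167 (SD, n = 6) over T0 libraries and 0.961 ± 0.0709 (SD, n = 11) over T2 libraries. The exact two-sided permutation test over all regroupings of the libraries gave p = 0.00178 (adjusted p = 0.00533 over 3 library values). Of the T2 libraries, T2 replicate 4 alone had a factor inside the range of T0, 1.07 against 1.06 to 1.10. Fewer genes were detected with 1 count or more in T2, 14543 ± 348 (SD, n = 11) against 14913.5 ± 186 (SD, n = 6), with p = 0.0271 in the exact permutation test (adjusted p = 0.0406). This adjusted p rose to as much as 0.0962 when a library was left out, and the call was lost in 8 of the 17 cases, without T0 replicate 1, 2, 5 or 6 or T2 replicate 1, 2, 4 or 7. The number of genes detected was not adjusted for library totals. T2 replicates 11 and 4 had the smallest totals, 6871395 and 8645789 counts, and the fewest genes, 13845 and 14088. The share of counts in the 10 largest genes was 7.56% in T0 and 7.92% in T2 (p = 0.229, exact permutation test). The first principal component of log2 CPM (the counts of a gene scaled to a common library total) held 41.8% of the variance. Its scores ran from -46.7 to -22.4 in T0 and from -16.8 to 72.3 in T2, so the groups did not overlap. T2 replicates 1, 7 and 2 had the highest scores, 72.3, 62.6 and 43.3, and also the lowest TMM factors, 0.881, 0.855 and 0.888.

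**Figure D1:**
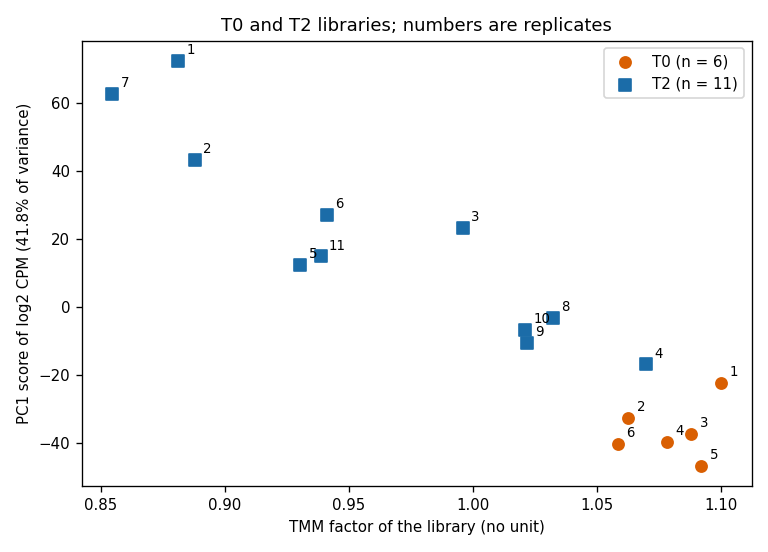
TMM factor (no unit, horizontal) against the score on the first principal component of log2 CPM (vertical) for the 6 T0 libraries (circles) and the 11 T2 libraries (squares), each marked with its replicate number. T0 libraries sit at factors from 1.06 to 1.10 with scores under -22, and T2 libraries spread from 0.855 to 1.07, with replicates 1, 2 and 7 farthest from T0.

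A large part of the blood transcriptome differed between the T0 and T2 libraries when the TMM factor was not a term of the model. Of 11662 genes tested, 3900 were differentially expressed (33.4%), meaning that the Benjamini-Hochberg adjusted p stayed under 0.05 and the level changed 1.3-fold or more. Expression was higher in T2 for 1979 genes (17%) and lower for 1921 (16.5%). Over all levels of expression, 487 genes were lower and 202 higher by a fold of at least 2. Lower genes had a median change of 0.75 in size on the log2 scale and higher genes one of 0.59, and the median over all genes tested was 0.039. In 639 genes (5.48%) every T2 library lay below every T0 library, and in 299 (2.56%) every T2 library lay above. T2 libraries also varied more among themselves. The SD of log2 CPM was larger in T2 for 8987 genes (77.1%), and its median was 0.364 in T2 against 0.236 in T0.

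The direction went with the mean CPM of a gene, which also reflects its length. Of the 2916 genes of lowest mean CPM (up to 6.70), 286 were higher and 525 lower in T2, and of the next 2915 genes (up to 21.9 CPM) 396 were higher and 653 lower. Between 21.9 and 63.2 CPM 546 genes were higher and 488 lower, and among the 2916 genes of highest mean CPM 751 were higher and 255 lower. The median log2 fold change was -0.036 in the first of these sets and 0.17 in the last. By a fold of at least 2, 231 genes were lower and 104 higher in the first set, but 23 lower and 38 higher in the last.

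**Figure D2:**
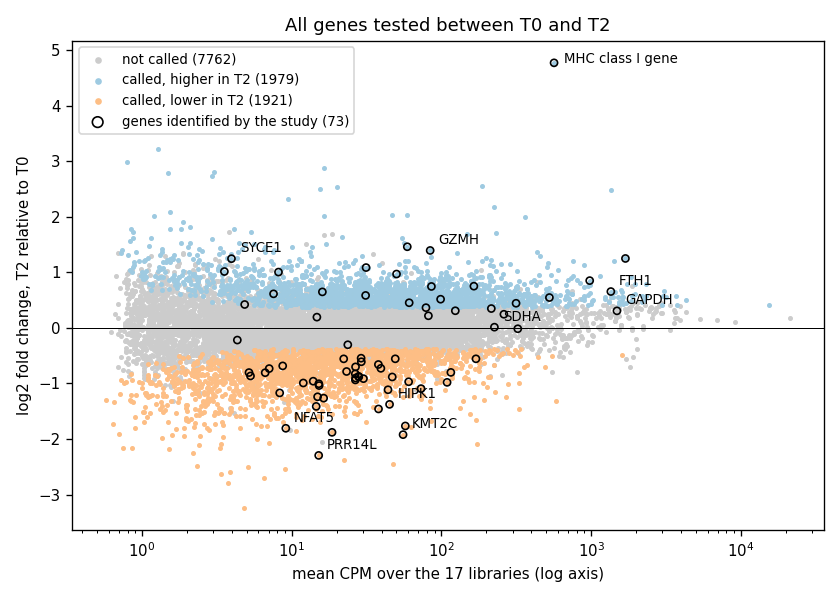
Log2 fold change of T2 relative to T0 (vertical) against mean CPM over the 17 libraries (horizontal, log axis) for the 11662 genes tested, with 1979 called higher genes in blue, 1921 called lower genes in orange and the 73 described genes identified by the study ringed. The ringed chromatin and signalling genes lie at moderate levels and below 0, and 1 MHC class I gene stands alone at 4.77.

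The counts depended on the TMM factor, which nearly separated both periods. When the log2 TMM factor was a term of the edgeR model, 0 genes were called, 1180 had an unadjusted p below 0.05 and the lowest adjusted p was 0.218. In that model 93.4% of the 3900 genes kept their sign, and the median size of their log2 fold change was 0.26 in place of 0.66. Period and TMM factor cannot be told apart in these libraries. Without T2 replicates 1, 2 and 7 together, 2693 genes were called, of which 43.5% were higher. With library totals alone and no TMM factor, 3560 genes were called but 847 (23.8%) were higher in T2 against 50.7% with the factor, since the median of all genes then lay at -0.13.

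Of these 73 genes identified by the study, 38 were lower in T2 (52.1%, against 16.5% of all genes), 16 were higher (21.9%, against 17%) and 19 did not pass the test. Their median log2 fold change was -0.61. The groups did not overlap in 22 of them (30.1%, against 8.04% of all genes), and all 22 were lower in T2. With each of the 17 libraries left out in turn, 45 of the 54 called genes kept their call throughout, and 45 kept it when T2 replicates 1, 2 and 7 were left out together. With library totals alone 48 kept it and none of the 54 changed sign. With all 37 libraries in one fit 40 kept it, and 23 did when the 1.3-fold threshold was itself tested (glmTreat). With the log2 TMM factor as a term, or in mares alone, 0 of the 54 kept their call. The libraries of T2 did not contribute alike. Relative to the T0 mean, the median of the 38 lower genes was -2.03 on the log2 scale in T2 replicate 1, -1.91 in replicate 7 and -1.62 in replicate 2. It lay between -0.49 and -0.67 in replicates 4, 8, 9 and 10, which had the highest TMM factors of T2.

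The 6 genes of chromatin regulation were all lower in T2, against 16.5% of all genes tested. In each of them the T2 libraries lay below all T0 libraries, against 5.48% of all genes. The study chose the genes, so the counts in this and the other lists describe its lists and not gene classes. Their log2 fold changes had a median of -1.56. KMT2C, a methyltransferase that marks enhancers on histone H3, had 83.6 CPM in the lowest, 102.6 in the median and 131.6 in the highest T0 library. In T2 it had 9.09 CPM in the lowest, 29.7 in the median and 44.6 in the highest library. Every T2 library was thus under the lowest T0 library, and the level was 3.79-fold lower (log2 fold change -1.92, SE 0.28, adjusted p = 0.000483). PRR14L, a relative of the heterochromatin tether PRR14, ran from 25.1 to 39.7 CPM in T0 with a median of 30.3. In T2 it ran from 0.613 to 11.4 CPM with a median of 6.34, which was a 4.91-fold lower level (log2 fold change -2.30, SE 0.37, adjusted p = 0.00085). ENSECAG00000017861, which the study assigned to the ANKRD11 family, a group of ankyrin repeat proteins that bind histone deacetylase complexes, was at 29.1 to 42.0 CPM in T0 (median 34.9). Its T2 libraries were at 1.53 to 13.3 CPM (median 11.2), with a log2 fold change of -1.88 (SE 0.27, adjusted p = 0.000484).

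The other chromatin genes changed less. MBTD1, a reader of methylated histones in an acetyltransferase complex, had a median of 23.9 CPM in T0 (19.0 to 26.8) and of 10.04 CPM in T2 (2.42 to 16.9). Its log2 fold change was -1.24 (SE 0.27, adjusted p = 0.00318). SRCAP, the ATPase that places the histone variant H2A.Z, was very even in T0, from 153.8 to 166.9 CPM. Its T2 libraries spread from 22.8 to 126.7 CPM around a median of 96.9, and the log2 fold change was -0.80 (SE 0.26, adjusted p = 0.0215). LOC100062658, assigned by the study to the Polycomb ring finger protein PCGF5, was lower by a log2 fold change of -0.79 (SE 0.16, adjusted p = 0.00241).

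All 10 transcription factors and coregulators were lower in T2, against 16.5% of all genes, and -0.87 was their median on the log2 scale. The T0 and T2 libraries did not overlap in NFAT5 and FOXN2. NFAT5, the transcription factor of the response to osmotic stress, had 12.3 CPM in the lowest, 16.9 in the median and 22.8 in the highest T0 library. The T2 libraries had 1.53, 4.19 and 9.12 CPM at the same ranks. No T2 library reached the T0 range, and the level was 3.50-fold lower (log2 fold change -1.81, SE 0.30, adjusted p = 0.000977). FOXN2, a forkhead factor, fell from a median of 24.7 CPM (20.9 to 28.7) to 9.47 CPM (3.30 to 14.9), a log2 fold change of -1.41 (SE 0.24, adjusted p = 0.00107).

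NCOA2, a coactivator of nuclear receptors, had 70.7 to 97.2 CPM in T0 and 15.4 to 76.0 CPM in T2. In 10 of the 11 T2 libraries it was below the lowest T0 library (log2 fold change -0.97, SE 0.23, adjusted p = 0.00472). TAF1, the largest subunit of the general transcription factor TFIID, was likewise below the T0 range in 10 T2 libraries, with a median of 67.5 CPM in T0 and 40.2 CPM in T2 (log2 fold change -0.88, SE 0.20). TBL1X, a subunit of the NCoR corepressor complex (log2 fold change -0.83), was also below the T0 range in 10 libraries. The zinc finger proteins ZFX (-0.87), ZNF618 (-0.87), ZNF814 (-0.68) and ZFP91 (-0.56) had smaller log2 fold changes, as had ZAB2 (-0.56), named here as the study prints it. ZFX has a close relative on the Y chromosome, so reads of both could not always be separated. ZAB2 lost its call without T0 replicate 5 or 6, where its log2 fold change was as near to 0 as -0.48.

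**Figure D3:**
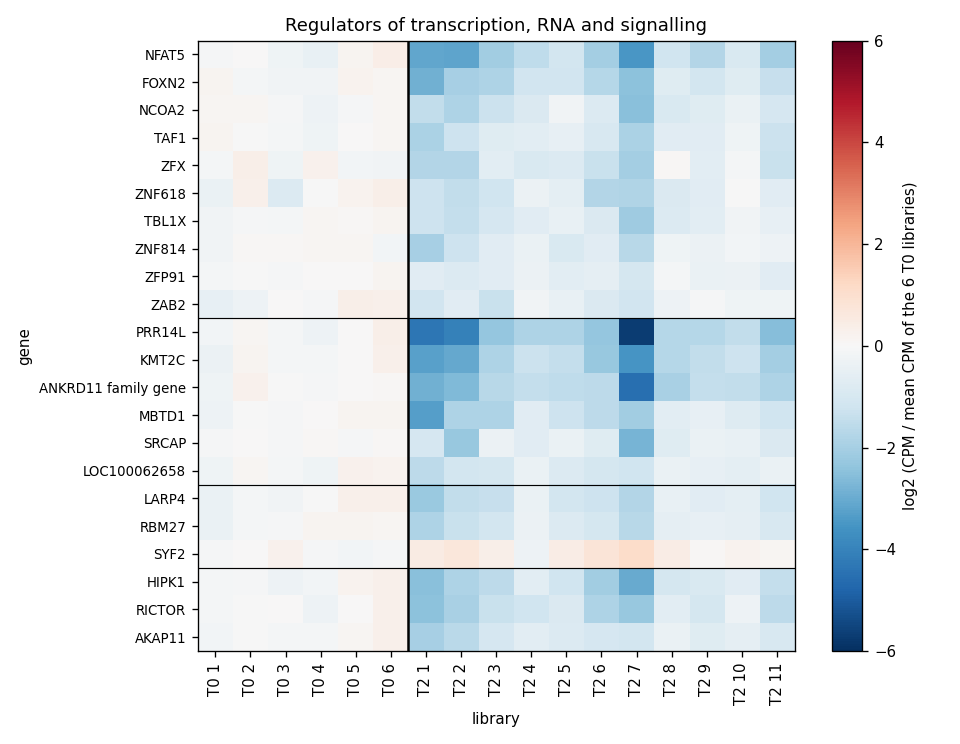
Log2 ratio of CPM to the mean CPM of the 6 T0 libraries (colour) for 22 genes of transcription, chromatin, RNA binding and kinase signalling (rows, in 4 blocks) in each of the 17 libraries (columns, T0 left of the line). Ratios in T2 reach down to -5.68 and are darkest in T2 replicates 1, 2 and 7, and 11 of the 242 T2 values lie above the T0 mean, 10 of them in the row of SYF2.

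The 3 genes of kinase signalling were lower in T2 (16.5% of all genes were), and none of them overlapped between groups (5.48% of all genes were lower without overlap). RICTOR, the subunit that defines mTOR complex 2, had 21.4 to 32.8 CPM in T0 (median 26.4) and 4.84 to 21.1 CPM in T2 (median 10.3). The highest T2 library lay just under the lowest T0 library, and the log2 fold change was -1.27 (SE 0.25, adjusted p = 0.00194). HIPK1, a nuclear kinase that phosphorylates homeodomain factors and p53, had 61.3 to 93.2 CPM in T0 (median 70.4) and 9.09 to 48.6 CPM in T2 (median 27.5). Its log2 fold change was -1.38 (SE 0.27, adjusted p = 0.0019). AKAP11, an anchor of protein kinase A, was lower by a log2 fold change of -0.91 (SE 0.17, adjusted p = 0.00175).

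Of 3 RNA-binding proteins, 2 were lower and 1 was higher in T2 (16.5% and 17% of all genes). LARP4, which binds the poly(A) tails of mRNA, went from 17.5 to 28.5 CPM in T0 to 4.84 to 17.2 CPM in T2 (log2 fold change -1.04, SE 0.22, adjusted p = 0.00272). RBM27 was lower by a log2 fold change of -0.90 (SE 0.19). SYF2, a splicing factor of the spliceosome, was at 44.4 to 59.6 CPM in T0 and 40.5 to 106.0 CPM in T2, above the T0 maximum in 7 libraries and below the T0 minimum in 1. Its log2 fold change of 0.45 (SE 0.16, adjusted p = 0.0312) lost the call without T0 replicate 1, 2, 4, 5 or 6 or T2 replicate 6 or 7, where it was as low as 0.37.

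Among 4 surface receptors, 2 were lower in T2 (16.5% of all genes) and 2 did not pass the test. P2RY14, a receptor for UDP-sugars released by stressed cells, had 13.2 CPM in the lowest, 16.6 in the median and 26.1 in the highest T0 library. In T2 it had 5.37, 9.10 and 13.1 CPM at these ranks, so that the highest T2 library lay barely below the lowest T0 library (log2 fold change -0.99, SE 0.19, adjusted p = 0.00189). LY5, which the study assigned to lymphocyte antigen 75, an endocytic receptor of antigen-presenting cells, had 88.0 to 141.2 CPM in T0 and 14.6 to 83 CPM in T2. It was lower by a log2 fold change of -1.09 (SE 0.27, adjusted p = 0.00559). The activin receptor ACVR2A had a log2 fold change of -0.22 (SE 0.21, adjusted p = 0.412). IL10RB, a receptor chain for interleukin 10, was above the T0 maximum in 7 T2 libraries, but its log2 fold change of 0.25 (SE 0.11, adjusted p = 0.0746) did not pass.

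Membrane trafficking genes gave 5 lower genes of 7, and none was higher (16.5% and 17% of all genes). ATP13A3, a transporter of polyamines, fell from 43.5 to 78.4 CPM in T0 (median 71.0) to 9.02 to 39.6 CPM in T2 (median 23.3). All T2 libraries were below all T0 libraries, and the log2 fold change was -1.46 (SE 0.25, adjusted p = 0.00106). The groups also did not overlap in TRAPPC10, a subunit of a vesicle tethering complex (log2 fold change -0.73), and in TMED5, a cargo receptor of the early secretory pathway (-0.88). GOPC, a Golgi scaffold, had a log2 fold change of -1.01, and WDR7, a protein of vesicle acidification, one of -0.96. GALNT7, a Golgi glycosyltransferase, had a log2 fold change of -0.61 (SE 0.26, adjusted p = 0.0732) and passed the test without T2 replicate 1, 8 or 9, at -0.69 to -0.50. MAP1LC3B, a marker of autophagosomes, had a log2 fold change of 0.22 (SE 0.15, adjusted p = 0.257).

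The 3 enzymes of phospholipid and acyl-CoA metabolism did not move together. The identifier that the study prints under both AGPAT5 and AGPAT1, an acyltransferase of phosphatidic acid synthesis, had a median of 7.05 CPM in T0 and 3.90 CPM in T2 (AGPAT5, log2 fold change -0.80, SE 0.21, adjusted p = 0.00829). LPGAT1, which acylates lysophosphatidylglycerol, varied widely in both groups, from 40.2 to 94.0 CPM in T0 and from 9.35 to 109.6 CPM in T2 (log2 fold change -0.56, SE 0.42, adjusted p = 0.299). ENSECAG00000009756, assigned to the acyl-CoA thioesterases, had a log2 fold change of 0.65 (SE 0.24, adjusted p = 0.0381). Its call was lost without T0 replicate 1, 2, 3, 5 or 6 or T2 replicate 6, 7, 10 or 11, where the value was as low as 0.52.

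Genes of the MHC, whose products present peptides to T cells, gave 4 rises among 6 genes and no fall (17% and 16.5% of all genes). Near-identical MHC copies can share reads, so the value of a single gene is uncertain. ENSECAG00000009368, a class I gene, split into libraries of high and low level. In T2 replicates 1, 3, 5 and 6 it had 2309, 2874, 2399 and 1706 CPM, while the other 7 T2 libraries had 9.15 to 38.2 CPM and the 6 T0 libraries 11.7 to 75.4 CPM. Such a split was present outside this pair too, with 4 of 12 T1 libraries at 1902 to 6575 CPM and 2 of 8 T3 libraries at 1146 and 1752 CPM. The log2 fold change of 4.77 (SE 1.49, adjusted p = 0.0184) thus rested on 4 libraries, and the T2 median of 34.1 CPM was close to the T0 median of 19.6 CPM. In limma voom with weights per period the log2 fold change was 2.13 (adjusted p = 0.154), and the call was lost.

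Among the other class I genes, LOC100051586 went from a median of 921.4 CPM in T0 (365.0 to 1304) to 1399 CPM in T2 (550.2 to 4545). Its log2 fold change of 1.25 (SE 0.45, adjusted p = 0.0357) was not called without T0 replicate 2, 3, 4, 5 or 6 or T2 replicate 3, 5, 6 or 7, where it ranged from 1.08 to 1.3. ENSECAG00000015782 had a log2 fold change of 0.85 (SE 0.33, adjusted p = 0.0494), which was lost in 12 of the 17 cases with a library left out, with 0.68 to 0.93. These were T0 replicates 2 to 6 and T2 replicates 1, 2, 3, 5, 6, 7 and 9. LOC100060531, assigned to a class II DQ beta chain, kept its call with each library left out. It had 14.2 to 29.8 CPM in T0 and 11.9 to 74.1 CPM in T2, above the T0 maximum in 7 libraries (log2 fold change 1.09, SE 0.33, adjusted p = 0.0157). The class I genes ENSECAG00000021750 (0.55) and ENSECAG00000016428 (0.52) did not pass, and the second did so without T0 replicate 1 (0.73).

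Of 7 other immune and antiviral genes, 2 were higher (17% of all genes), 2 were lower (16.5% of all genes) and 3 did not pass. GZMH, a granzyme of the killing granules of natural killer and cytotoxic T cells, had 18.3 CPM in the lowest, 37.05 in the median and 74 in the highest T0 library. In T2 it had 46.4, 93.0 and 190.9 CPM, and all 11 T2 libraries lay above the T0 median and 6 above the T0 maximum. The log2 fold change was 1.39 (SE 0.36, adjusted p = 0.00696). LOC100052638, assigned to granzyme H as well, had a log2 fold change of 1.46 (SE 0.49, adjusted p = 0.0271) that lost its call without T0 replicate 1, 4, 5 or 6, at 1.31 to 1.45. Reads may be shared between both genes. A relative of the interferon-activable protein 203, ENSECAG00000014696, fell from 53.7 to 79.2 CPM in T0 to 11.4 to 45.6 CPM in T2 without overlap (log2 fold change -1.11, SE 0.22, adjusted p = 0.00211). ENSECAG00000023195, assigned to the ubiquitin ligase TRIM25 of antiviral signalling, was lower by a log2 fold change of -0.94 (SE 0.28, adjusted p = 0.0156). The antiviral cytidine deaminase APOBEC3Z2E (0.36), the interferon-induced transmembrane protein LOC100050719 (0.58) and ENSECAG00000012920 (0.31), placed by the study among defence proteins, did not pass, and the last did so without T0 replicate 2 (0.39).

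**Figure D4:**
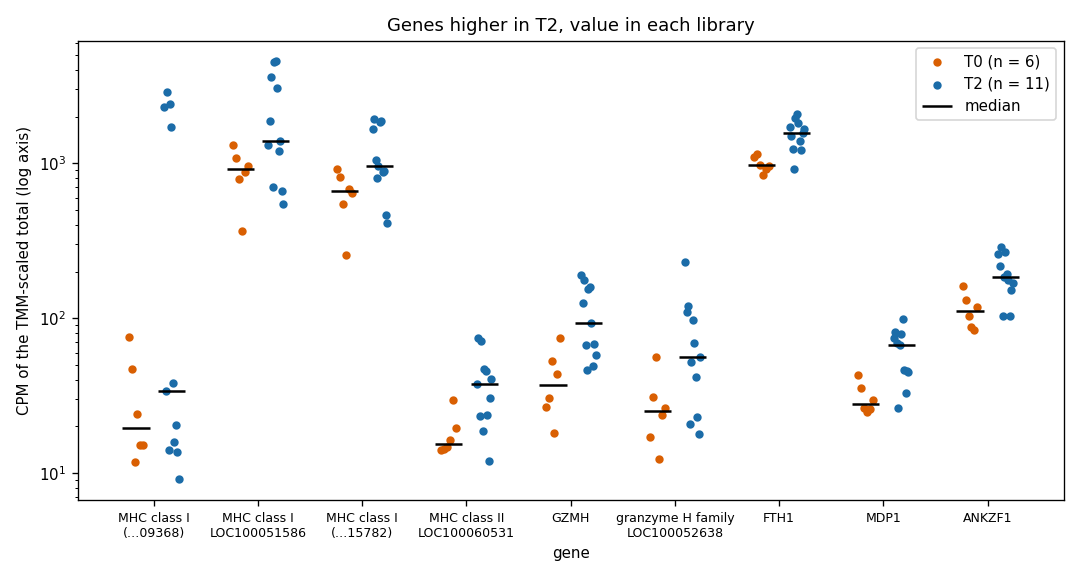
CPM of the TMM-scaled total (vertical, log axis) of 9 genes that were higher in T2 (horizontal), with a point for each of the 6 T0 and 11 T2 libraries and a bar at each median. T2 overlaps T0 in all 9 genes, and the first MHC class I gene splits into 4 T2 libraries at 1706 CPM or more and 7 at or below 38.2 CPM.

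Both ribosomal protein genes were higher in T2, against 17% of all genes. RPL23A, a protein of the large subunit, had a median of 251.6 CPM in T0 and 349.7 CPM in T2 (log2 fold change 0.44, SE 0.17, adjusted p = 0.0465). It was not called without T0 replicate 1, 3, 5 or 6 or any of T2 replicates 1 to 7, where it lay between 0.34 and 0.46. LOC100059314, placed among ribosomal proteins by the study, was low, at 1.60 to 2.69 CPM in T0 and 1.90 to 6.94 CPM in T2 (log2 fold change 1.01, SE 0.26, adjusted p = 0.00701). Ribosomal protein genes have many near-identical processed copies, which makes both values uncertain.

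Of the 9 genes with other functions, 6 were higher (17% of all genes) and 3 did not pass. FTH1, the heavy chain of the iron store ferritin, had the highest counts relative to the library totals. It had 836.6 CPM in the lowest, 968.6 in the median and 1146 in the highest T0 library, and 925.1, 1566 and 2095 CPM in T2. It was above the T0 maximum in 10 of 11 T2 libraries (log2 fold change 0.65, SE 0.15, adjusted p = 0.00409). MDP1, a phosphatase, rose from a median of 28 to 67.2 CPM (log2 fold change 0.97, SE 0.24, adjusted p = 0.0061), and RP9, a splicing-associated protein, from 60.7 to 101.9 CPM (0.75, SE 0.19, adjusted p = 0.00639). Both were above the T0 maximum in 9 T2 libraries. ANKZF1, a factor that releases stalled peptides from ribosomes, had a log2 fold change of 0.75 (SE 0.22, adjusted p = 0.0124). SYCE1, a protein of the meiotic synaptonemal complex, was low, with 0.71 to 4.54 CPM in T0 and 1.86 to 10.1 CPM in T2 (log2 fold change 1.25, SE 0.38, adjusted p = 0.0174). CRYGS, a crystallin of the eye lens, was at 1.74 to 7.95 CPM in T0 and 2.38 to 16.9 CPM in T2, and its log2 fold change of 1.0 (SE 0.34, adjusted p = 0.0278) was lost without T0 replicate 3, 4 or 5, where it was as low as 0.83. ANP32A, a histone chaperone, had an adjusted p of 0.0494 but a log2 fold change of 0.35, below a fold of 1.3. GTSF1 (0.19) and C7orf50 (0.42) did not pass.

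Of 5 cytoskeleton and nuclear envelope genes, 2 were lower, against 16.5% of all genes. LIMS1, an adaptor of integrin signalling, had 32.5 to 39.5 CPM in T0 and 9.13 to 30.1 CPM in T2 without overlap (log2 fold change -0.70, SE 0.20, adjusted p = 0.0115). ENSECAG00000011016, assigned to an orphan intermediate filament family, was lower by -0.81 on the log2 scale. The nuclear pore protein POM121C (-0.55, adjusted p = 0.0614) passed without T2 replicate 7, 9 or 10, at -0.62 to -0.45. MYH3 (0.61) and NHSL2 (-0.30) did not pass. Among 6 uncharacterized genes 5 were lower, against 16.5% of all genes. ENSECAG00000017946 had the largest fall, from 90.7 to 140.8 CPM in T0 to 6.03 to 55.1 CPM in T2 (log2 fold change -1.77, SE 0.33, adjusted p = 0.00163). In ENSECAG00000017795 the call (-0.66) was lost without T0 replicate 1, 4, 5 or 6 or T2 replicate 2, at -0.68 to -0.57. The sixth, ENSECAG00000014226, had a median of 354.8 CPM in T0 and 251.6 CPM in T2 and a log2 fold change of -0.016.

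The 2 reference genes of the study's qPCR did not pass the test. SDHA, a subunit of mitochondrial complex II, had 199.5 to 264.1 CPM in T0 and 189.1 to 283.9 CPM in T2 (log2 fold change 0.013, SE 0.10, adjusted p = 0.933), and its sign changed to -0.15 with library totals alone. GAPDH, a glycolytic enzyme, had a median of 1292 CPM in T0 and 1600 CPM in T2. It was above the T0 maximum in 8 of the 11 T2 libraries, with a log2 fold change of 0.31 (SE 0.13, adjusted p = 0.0769).

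Among the 3313 called genes with a mean of 50 counts or more, the largest falls were in identifiers that the files do not pair with a name. ENSECAG00000008385 was at 8.82 to 14.2 CPM in T0 and at 0 to 3.02 CPM in T2, with no overlap (log2 fold change -3.24, SE 0.42, adjusted p = 0.000321). For ENSECAG00000017220 the fall (-2.71, SE 0.68, adjusted p = 0.00619) rested on T0 replicate 6, which had 57.9 CPM against 2.71 to 12.4 CPM in the other T0 libraries. Without it the log2 fold change was -1.40 and the adjusted p 0.0755. After the MHC class I gene, the largest rises were in ENSECAG00000021499, from a median of 3.47 CPM in T0 to 13.3 CPM in T2 (log2 fold change 2.89, SE 0.68, adjusted p = 0.00461), and in ENSECAG00000012376. The former had 111.3 CPM in T2 replicate 3 against at most 27.7 CPM in the other T2 libraries, and without that library its log2 fold change was 2.21 (adjusted p = 0.00415). ENSECAG00000012376 ran from 16 to 113.5 CPM in T0 and from 59.8 to 554.1 CPM in T2 (log2 fold change 2.56, SE 0.45, adjusted p = 0.00126).

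Levels in the other periods were set beside those of T0 and T2 on the same scale, as means ± SD over 12 T1 and 8 T3 libraries. KMT2C had 26.3 ± 8.07 CPM in T1 and 27.9 ± 12.9 CPM in T2, against 106.0 ± 17.5 CPM in T0 and 133.7 ± 53.5 CPM in T3. The T0 and T3 libraries were both drawn in October, and T1 and T2 in spring. In the study, all T1 and most T2 libraries also had a lower share of uniquely mapped reads than any T0 or T3 library. The part of the month and of the mapping in these levels was not tested. NFAT5 had 17 ± 3.68 CPM in T0, 4.88 ± 2.17 CPM in T1, 4.83 ± 2.56 CPM in T2 and 28.7 ± 15.4 CPM in T3. RICTOR stood at 26.3 ± 3.74, 8.11 ± 2.48, 10.9 ± 5.06 and 38.3 ± 15.7 CPM in the 4 periods in order. The level in T2 was nearer to T1 than to T0 in these 3 genes. GZMH was at 41.0 ± 20.3 CPM in T0, 177.5 ± 120.7 CPM in T1, 107.7 ± 54.4 CPM in T2 and 61.7 ± 25.5 CPM in T3, and its SDs in T1 and T2 overlap widely. FTH1 was at 988.8 ± 113.8 CPM in T0 and 1366 ± 422.0 CPM in T3. SDHA stayed between 216.0 CPM in T1 and 227.0 CPM in T3.

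**Figure D5:**
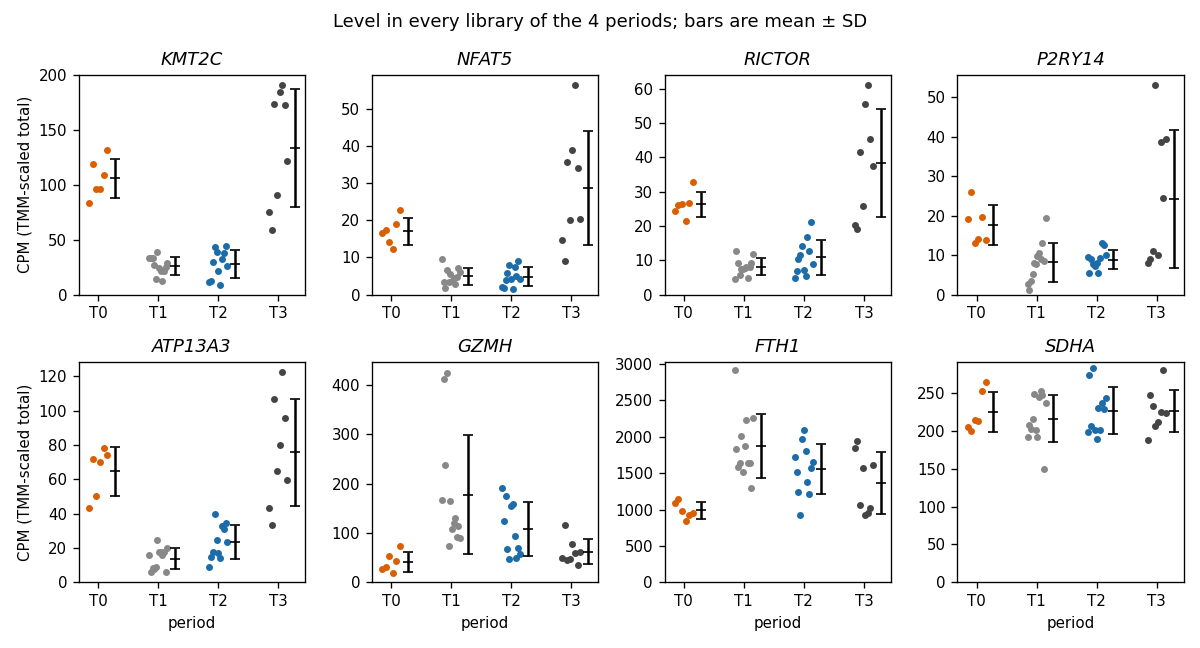
CPM of the TMM-scaled total (vertical, from 0) of 8 genes in each library of T0 (6), T1 (12), T2 (11) and T3 (8), with the mean ± SD as a bar beside the points. KMT2C, NFAT5, RICTOR, P2RY14 and ATP13A3 are low in T1 and T2, GZMH and FTH1 are lowest in T0, and SDHA has means from 216.0 to 227.0 CPM.

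Whether the change from T0 to T2 differed between mares and stallions was tested as an interaction. The edgeR test called 0 of 11662 genes, with 157 at an unadjusted p below 0.05, and DESeq2 called 1, ENSECAG00000020519, with 192 at an unadjusted p below 0.05. That gene, named after its value was seen, had an adjusted p of 0.0384 in DESeq2 and of 1 in edgeR. Among the genes described above, GZMH (p = 0.0409 in the edgeR model) and SYCE1 (p = 0.0306) had an unadjusted p below 0.05, and neither passed the adjustment. In stallions alone 1986 genes were called and 34 of the 54 called genes kept their call, among the lost ones GZMH with a log2 fold change of 0.93 (adjusted p = 0.113) against 2.44 in mares (adjusted p = 0.262). In mares alone, with 2 T0 libraries, 0 genes were called by edgeR and 1870 had an unadjusted p below 0.05.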

How the data were processed

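Blood RNA had been sequenced by the authors as unstranded 75 base single reads, trimmed with Flexbar, aligned with STAR to EquCab2 (Ensembl 83) and quantified with RSEM. The deposited values are expected counts per gene, rounded by the authors to whole numbers and not normalized. Groups, sexes and ages were taken from the labels. Here 26991 genes in 6 T0 and 11 T2 libraries entered an edgeR 4.0.16 fit (R 4.3.3): filterByExpr left 11662 genes, TMM factors scaled the libraries, and glmQLFTest compared T2 with T0, adjusted after Benjamini and Hochberg over all genes tested. Calls needed an adjusted p under 0.05 and a change of 1.3-fold or more. An SE is the size of the log2 change over the root of the F statistic. CPM values use TMM-scaled totals. Gene lengths were not used here, so CPM values of different genes are not levels per length. The library totals limit precision: at the smallest total, 6871395 counts, 1 CPM rests on about 7 counts.

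The members and gene lists were chosen with earlier results of these data known. Named genes are 73 identifiers printed by the study (1 further item is not reported here), the largest changes among called genes that average 50 counts or more, and the smallest p-values, with at most 2 identifiers without a symbol in each direction. The genes with most counts carry no symbol and are not named. Library values were compared with exact permutation tests. Replicate numbers were not taken to pair libraries, as numbers 1 to 4 differ in labelled sex between T0 and T2. No 2 libraries were duplicates (lowest chi-square per degree of freedom 21.9 in T0 and 19.4 in T2). Alternatives were DESeq2 1.42.0, limma 3.58.1, RLE factors, library totals, other filters, all 37 libraries, sex, the replicate block, a surrogate variable (sva 3.50.0), the TMM factor, 2 genes over 1% of counts left out, thinning, other fold thresholds, 1 sex, and each library left out, and 1 was chosen after seeing the data, T2 replicates 1, 2 and 7 left out. The 3 smaller tables of the authors, which hold subsets of these genes, were not used. Marker and pathway lists could not be paired with identifiers and were not tested. Sequencing pools were not used as a term, since the sample numbers of the study's pool table are not those of the labels and could be matched by order only.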

Additional observations from a re-analysis of the deposited data

Results flagged for a closer look

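Of 77 values tested in T0, 73 genes and 4 library values, 3 had a library far from the other 5, about what chance gives at 1 in 20. TMED5, a cargo receptor of the early secretory pathway, had 49.7 CPM in T0 replicate 5 against at most 40.0 CPM in the others. LOC100060531, the MHC class II gene, had 29.8 CPM in the same library against at most 19.7 CPM. ENSECAG00000014226, uncharacterized, had 143.0 CPM in T0 replicate 1 against at least 315.0 CPM. The 11 T2 libraries were not tested in this way. TMED5 and LOC100060531 kept their calls without T0 replicate 5.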

How the results depend on the processing

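The 3900 calls became 2113 (37.3% higher) with all 37 libraries in one fit, 668 (29.6% higher) when the fold was tested with glmTreat, 689 (29.3% higher) at a fold of at least 2, 1986 (43.4% higher) in stallions, 0 in mares and 0 with the log2 TMM factor as a term; that factor nearly separates the periods, and the mares are 2 T0 and 4 T2 libraries. The other alternatives gave 2693 (the alternative chosen after seeing the data) to 4424 calls, and leaving out 1 library gave 3039 (without T0 replicate 5) to 4306 (without T2 replicate 4). The replicate block gave 3829 calls (46.1% higher) against 4021 for the same 12 libraries without it. Numbers 1 to 4 had opposite labelled sexes in T0 and T2, so there the block joined different horses. Numbers 5 and 6 were stallions in both groups. Deviations of equal numbers correlated at -0.14 to 0.27, which cannot decide whether libraries are paired. Number 4 alone correlated best with its own number, although it was a mare in T0 and a stallion in T2. The interaction count went from 0 to 1 in DESeq2. The difference in genes detected ranged from -424.3 to -300.7 with a library left out. Over 73 genes and 18 alternatives, 1059 of 1314 results kept direction and call. Another 207 kept direction but lost the call, 19 kept direction and gained one, and 29 changed direction. The cause was not tested.

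Of the 54 called genes, LOC100052638, SYF2 and ZNF814 changed sign in an alternative. With the log2 TMM factor as a term the log2 fold changes were ANP32A -0.053, APOBEC3Z2E -0.14, C7orf50 -0.18, GALNT7 0.0043, GAPDH -0.014, GTSF1 -0.30, IL10RB -0.040, LOC100050719 -0.28, LOC100052638 -0.083, MAP1LC3B -0.080, NHSL2 0.12, POM121C 0.17, SYF2 -0.035, ZNF814 0.0074 and ENSECAG00000014226 0.28. ENSECAG00000014226 also had 0.15 with the replicate block, 0.38 with T2 numbers 1 to 6, 0.052 with a surrogate variable, 0.18 in stallions, and -0.37 to 0.079 with a library left out. GTSF1 had -0.014 in mares and -0.066 without T2 replicates 1, 2 and 7, and LPGAT1 0.29 in mares. SDHA had -0.15 with library totals, -3.7e-05 without a filter, -0.0068 with at least 6 counts, -0.012 with all libraries, -0.014 with the block, -0.0036 with T2 numbers 1 to 6, -0.0059 without T2 replicates 1, 2 and 7, and -0.024 to 0.064 with a library left out.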
